A study of Mus musculus with 12 samples.

Results

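Interferon-stimulated genes are transcribed when a cell senses interferon, and 41 of them, chosen by symbol from a list of type I and type II interferon-induced genes, were followed here among the 45777 genes of the deposited expression table. All 41 symbols were found, and all 41 had reads in 3 or more libraries, the requirement that 23585 genes met. The study cultured CD4+ T cells from the spleens of wild-type mice, labelled Balb/c and 7 weeks old, with anti-CD3 at 0.5 ug/mL for 3 days and sequenced their polyadenylated RNA. The cultures fell into 4 groups of 3 libraries. The control group received anti-CD3 alone, the second group anti-CD3 with Lactobacillus acidophilus, the third anti-CD3 with FK506, and the fourth anti-CD3 with both.

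Anti-CD3 is an antibody that stimulates T cells through the T-cell receptor complex, and every group, the control included, received it. L. acidophilus is a lactic acid bacterium that the study's methods describe as inactivated by heat, and FK506 (tacrolimus) is a calcineurin inhibitor used against transplant rejection. The amounts of L. acidophilus and FK506 in these RNA-seq cultures are not given in the sources used here, and the methods name B6 mice where the sample labels name Balb/c. Nothing in the labels says that the replicates came from separate animals, so the p-values below measure the spread between these libraries, which may be technical.

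Type I interferons (interferon-α and -β) bind a receptor made of IFNAR1 and IFNAR2, whose kinases JAK1 and TYK2 activate STAT2 among other factors. STAT2 joins IRF9 in a complex that binds the interferon-stimulated response element (ISRE). Interferon-γ, the type II interferon that activated T cells and natural killer cells secrete, binds IFNGR1 and IFNGR2 and, through JAK1 and JAK2, acts on genes that hold the gamma-activated site (GAS). The genes switched on restrain virus replication, sense foreign nucleic acid and attack vacuoles that hold bacteria and parasites. Guanylate-binding proteins and immunity-related GTPases are known for a strong response to interferon-γ, and the OAS, IFIT, MX and ISG15 genes for a strong response to type I interferon, although many genes respond to both.

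The core letters of both elements were looked for, on both strands, in the promoters that RefSeq gives on GRCm38.p6, from 250 bases before to 50 bases after each annotated start. The ISRE core was read as GAAA, any 2 bases, GAAA, and the GAS core as TTC, any 3 bases, GAA. Promoters were matched for 30 of the 41 genes (37 windows, since some genes have several starts). An ISRE core lay in 16 of these 30 genes (53.3%) and in 17 of 37 windows (45.9%), against 3.44% of all 32851 promoter windows. A GAS core lay in 10 of the 30 genes (33.3%) and in 10 of the 37 windows (27.0%), against 8.30% of all windows, and 5 genes held both. The stretches printed next hold the matches of the most abundant gene of 7 of the 10 role groups, with 20 bases on either side where the window allows, and show how the elements sit in genes whose levels are described in the following paragraphs. Matches are in capitals, and all stretches are 5′ to 3′ on the strand of the gene.

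Irf1, chr11:53769904-53769952, plus strand: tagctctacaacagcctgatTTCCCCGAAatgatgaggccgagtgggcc
Isg15, chr4:156200855-156200916, minus strand: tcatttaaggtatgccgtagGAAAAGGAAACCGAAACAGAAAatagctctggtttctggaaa
Ifit2, chr19:34550444-34550481, plus strand: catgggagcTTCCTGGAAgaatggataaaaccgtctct
Oas3, chr5:120777705-120777754, minus strand: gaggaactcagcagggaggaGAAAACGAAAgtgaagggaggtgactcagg
Samhd1, chr2:157135303-157135346, minus strand: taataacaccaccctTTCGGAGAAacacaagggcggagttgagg
Gbp2, chr3:142620584-142620633, plus strand: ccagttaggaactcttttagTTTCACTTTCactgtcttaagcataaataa
Igtp, chr11:58199491-58199551, plus strand: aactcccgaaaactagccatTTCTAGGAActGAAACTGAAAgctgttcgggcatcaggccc

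Isg15, which had the highest level of the ISG15 system, held 3 ISRE cores that overlap one another, Igtp held a GAS core followed by an ISRE core, and the ISRE core of Gbp2 lay on the opposite strand. For the nucleic acid sensors the gene printed would be Ifih1 and for the remaining interferon-induced genes Ifi35, but their matches lie past the annotated start and are not printed. A match describes the letters in the window and was not tested for binding.

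Levels spanned a wide range. Mean FPKM (fragments scaled by transcript length and library depth, a level corrected for gene length) over the 12 libraries ran from 0.171 for Oasl2 to 370.1 for Ifi27l2a, with a median of 11.0. The 4 genes above 100 were Ifi27l2a, Samhd1, Igtp and Gbp2, and the 5 genes below 1 were Oasl2, Rsad2, Oas2, Ifit3 and Cmpk2. Library totals lay between 45416397 and 64658165 counts, so that counting error matters mainly for the last group. Oasl2 had 0 to 96 reads per library and Rsad2 13 to 211. Members of the OAS, IFIT, guanylate-binding protein and immunity-related GTPase families, and Ifi27l2a and Trim30a, have close relatives, and reads that fit several copies may have been divided among them.

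**Figure D1:**
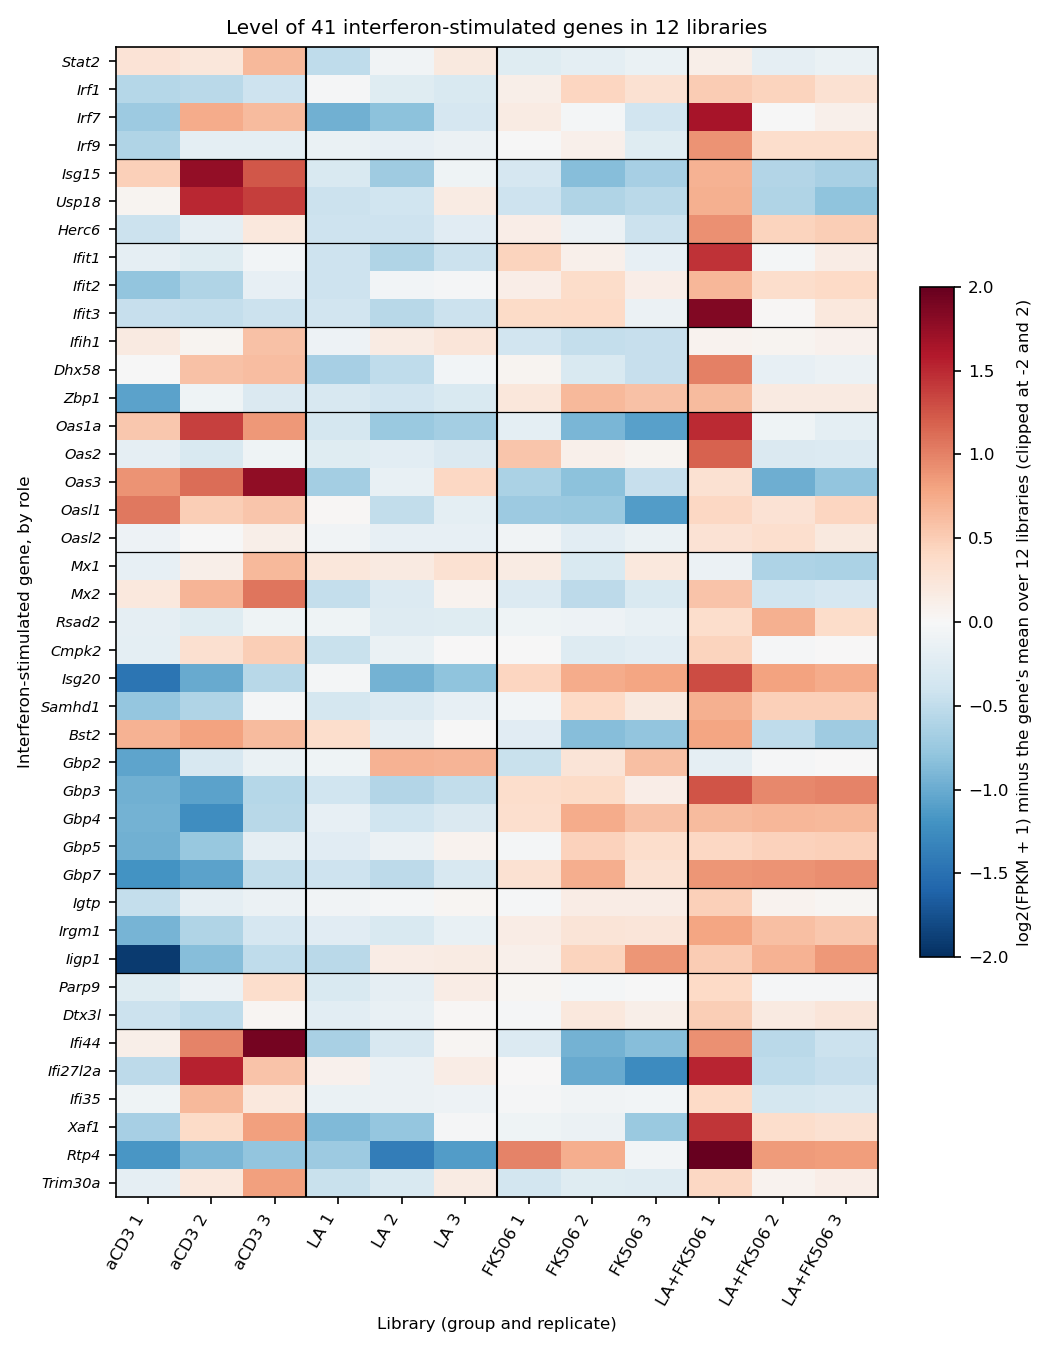
Level of the 41 interferon-stimulated genes (rows, grouped by role) in the 12 libraries (columns), as log2(FPKM + 1) minus the mean of the gene over all libraries, clipped at -2 and 2; red is above and blue below the mean of the gene. By group mean, the guanylate-binding proteins and immunity-related GTPases are lowest with anti-CD3 alone and Isg15, Usp18 and Oas3 are highest there, although single libraries overlap for some of these genes. Replicate 1 of the combination is red in most rows, being the highest of its group for 32 of 41 genes.

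Replicate 1 of the combination stood apart in these genes. It was the highest of its group for 32 of the 41 genes (78.0%), against 38.4% of all genes tested, and it exceeded both other combination libraries by over 1.5 times for 18 of the 41, against 10.6% of all genes tested. The control libraries also differed among themselves, replicate 1 being the lowest of its group for 30 of the 41 genes, against 29.1% of all genes tested, and replicate 3 the highest for 32, against 34.8%. Replicate 1 was also the deepest library of each group, with 63113961 to 64658165 counts against 45416397 to 54245588 for replicates 2 and 3, and the part of depth in these differences was not tested. Results on the combination are given with all libraries, and also without replicate 1 of the combination where that ended a call or clearly moved a value. Replicates 2 and 3 of the combination were close to each other. Their counts differed by a chi-square of 4.52 per degree of freedom, against 43.7 to 187.5 for pairs within the control and FK506 groups. Calls gained without replicate 1 of the combination therefore rest, for that group, on libraries that differ little.

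Markers of other cell types moved with the treatments. The summed FPKM of 12 B-cell markers ran from 41.7 to 69.2 with anti-CD3 alone, from 28.1 to 39.99 with L. acidophilus, from 250.1 to 499.0 with FK506 and from 149.8 to 174.8 with the combination. Of the 12, 11 were called higher with FK506 than with anti-CD3 alone, where 6.44% of all genes tested were. The sum of 10 myeloid and dendritic cell markers ran from 4.25 to 6.40, from 4.90 to 10.1, from 17.4 to 34.6 and from 75.1 to 98.5 in the same order. Of the 10, 9 were called higher than with anti-CD3 alone in both FK506 groups, where 6.44% (FK506) and 13.8% (combination) of all genes tested were. Lyz2, which encodes the lysozyme of macrophages and neutrophils, was listed at 0 FPKM in 3 of the 6 libraries without FK506 and was at 30.8, 14.5 and 16.1 FPKM in the combination libraries. Of 5 plasmacytoid dendritic cell markers, Siglech was listed at 0 in 9 libraries and Klk1 in 10, while the sum of the 5 was at most 2.18 FPKM without FK506 and at least 7.23 with it, nearly all of it Pacsin1 and Tcf4. The 6 CD8 and natural killer cell markers summed to 3.06 to 7.67 FPKM without FK506 and 7.64 to 20.1 with it, and 8 T-cell markers to 1391 to 2263 over all libraries. The part of these cells in the changes of the interferon-stimulated genes was not tested, and in bulk RNA fewer cells of a type cannot be told apart from less RNA per cell.

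The first question was what each treatment did against anti-CD3 alone. A gene was called where the Benjamini-Hochberg adjusted p of edgeR's quasi-likelihood test was under 0.05 over all 23585 genes and the change was at least 2-fold. FK506 split the interferon-stimulated genes: 7 of 41 were called higher, where 6.44% of all genes tested were, and 8 of 41 were called lower, where 4.12% were. The genes called higher were Zbp1, Isg20, Gbp3, Gbp4, Gbp7, Iigp1 and Rtp4, and those called lower were Isg15, Usp18, Oas1a, Oas3, Oasl1, Mx2, Bst2 and Ifi44. The median log2 fold change of the 41 was -0.12, against -0.0017 over all genes. Leaving out replicate 2 of FK506 took the 15 calls to 8, while the share of all genes called also fell, from 10.6% to 7.12%. Isg15, Oas3, Oasl1, Isg20, Gbp3, Gbp4, Gbp7 and Iigp1 were still called.

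With the combination, 10 of 41 genes were called higher than with anti-CD3 alone, where 13.8% of all genes tested were, and 4 were called lower, where 10.8% were. Those called higher were Ifit2, Ifit3, Rsad2, Isg20, Gbp3, Gbp4, Gbp7, Irgm1, Iigp1 and Rtp4, and those called lower were Isg15, Usp18, Oas3 and Mx1. The median log2 fold change was 0.30, against 0.02 over all genes. Scaling by library totals alone, without the TMM factors (edgeR's correction for differences in RNA composition), gave 14 called higher, where 16.8% of all genes tested were in that fit, and 3 called lower, where 7.75% were. Without replicate 1 of the combination, 8 genes were called higher (background 12.8%) and 9 lower (background 11.2%): Ifit2 and Irgm1 fell just short of the 2-fold minimum, and Oas1a, Mx2, Bst2, Ifi44 and Ifi27l2a joined the lower calls.

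L. acidophilus alone gave no call in either direction by edgeR, where 0.157% of all genes tested were called higher and 0.0297% lower, and none by limma on log2(FPKM + 1), where 0.0466% of all genes were called. Unadjusted p was under 0.05 for 22 of the 41 genes (8 higher, where 7.54% of all genes tested were, and 14 lower, where 7.25% were). DESeq2 called 6, all lower, where it called 0.708% of all genes lower, namely Isg15, Usp18, Oas1a, Oas3, Oasl1 and Mx2. Per library, 6 genes were higher in all 3 L. acidophilus libraries than in any control library (Irf1, Irf9, Gbp2, Gbp4, Igtp and Irgm1), where 11.8% of all genes tested had groups that did not overlap in this direction. Another 11 were lower in all 3 (Stat2, Isg15, Ifit1, Dhx58, Oas1a, Oas3, Oasl1, Mx2, Bst2, Ifi44 and Ifi35), where 6.03% of all genes did. The median log2 fold change was -0.34, against -0.0048 over all genes. The 5 guanylate-binding proteins and 3 immunity-related GTPases all had values above 0 and the 5 OAS genes and 3 genes of the ISG15 system all had values below 0, none of them past the test.

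**Figure D2:**
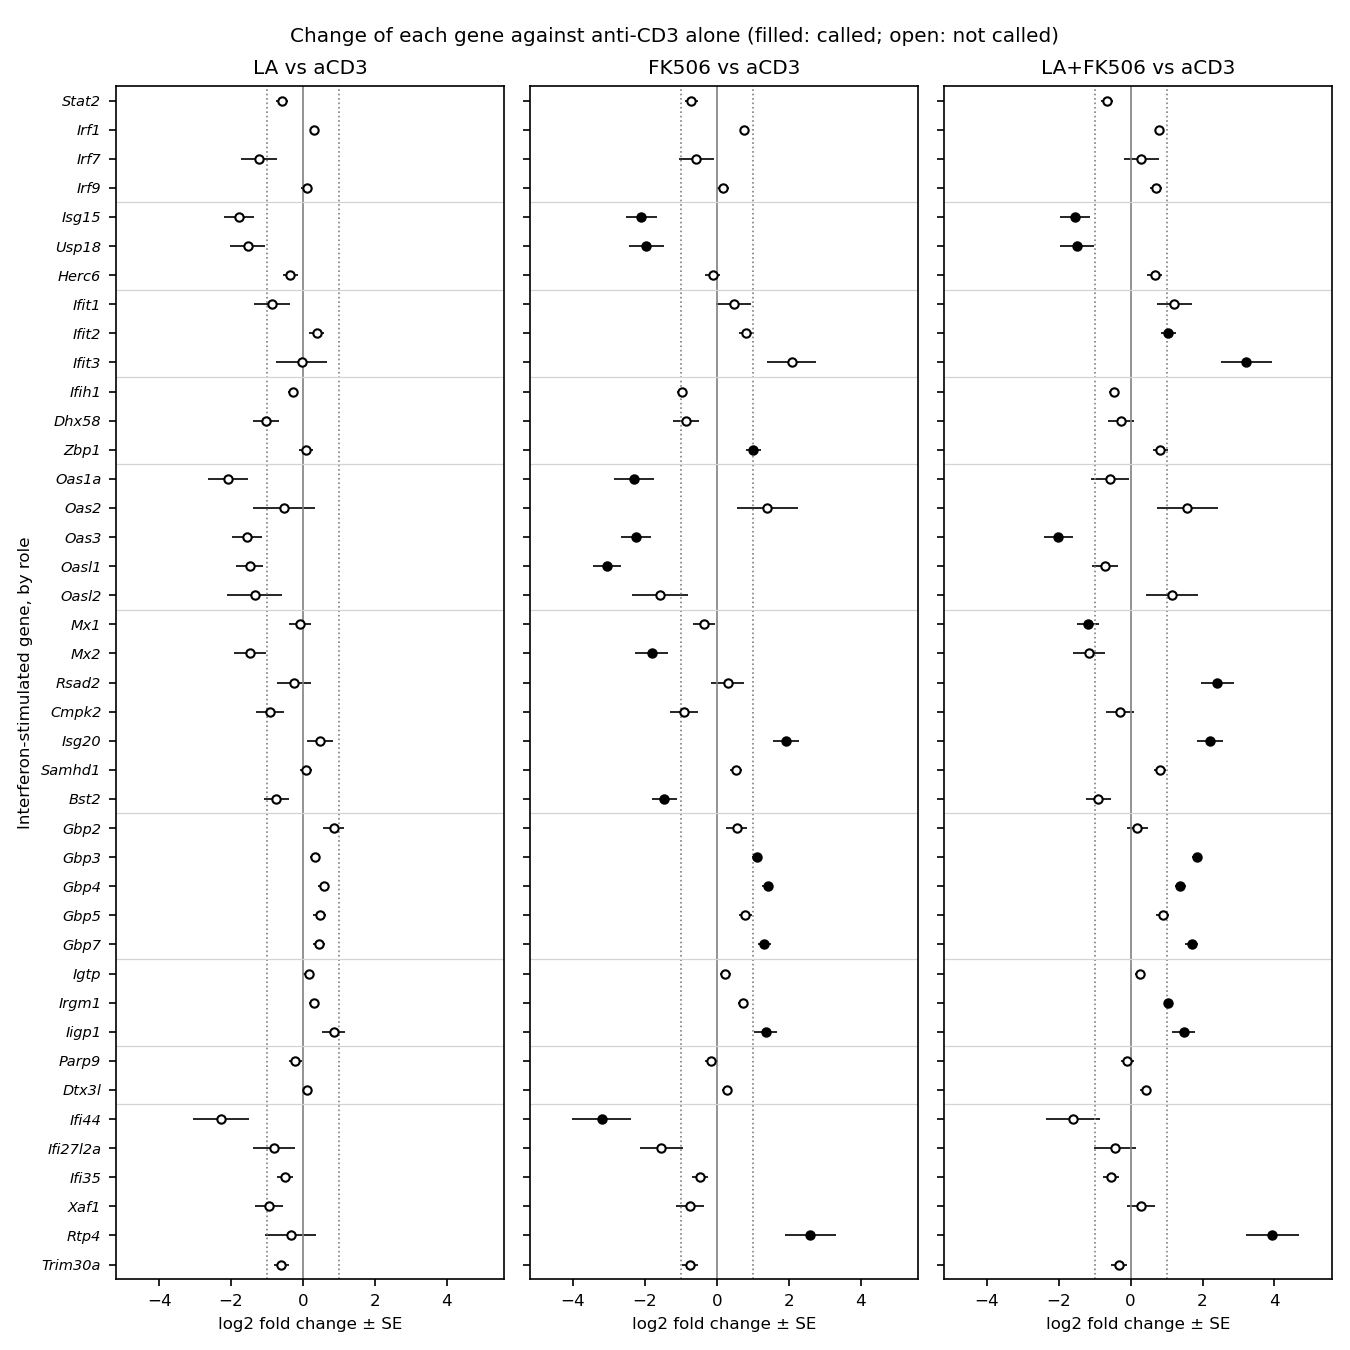
Log2 fold change ± SE of each of the 41 genes against anti-CD3 alone for L. acidophilus, FK506 and the combination, by role, with dotted lines at a 2-fold change; filled points were called and open points were not. The 3 comparisons share the same 3 control libraries. Oasl1 lies at -3.05 with FK506 and at -0.70 with the combination, while Gbp3 lies at 1.11 and 1.84.

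Adding L. acidophilus to FK506 was compared with FK506 alone. Here 4 of 41 genes were called higher, where 3.84% of all genes tested were, and none was called lower, where 3.6% were (1 at an unadjusted p under 0.05, and 0 by DESeq2 and limma). The 4 were Oas1a, Oasl1, Oasl2 and Rsad2, and 36 of the 41 values were above 0, with a median of 0.47 against 0.03 over all genes. This count rested on replicate 1 of the combination: without it 23 values were above 0, the median was 0.02, and 2 genes were called higher (Oasl1 and Rsad2, background 2.88%) and 2 lower (Oas2 and Mx1, background 3.63%). Against L. acidophilus alone, 11 genes were higher with the combination, where 9.93% of all genes tested were, and 1 gene, Mx1, was lower, where 6.64% were. The 11 were Irf7, Herc6, Ifit1, Ifit3, Oasl2, Rsad2, Isg20, Gbp3, Gbp7, Xaf1 and Rtp4. Without replicate 1 of the combination this comparison had 8 higher (background 8.8%) and 2 lower calls (background 6.87%), Irf7, Herc6 and Xaf1 being lost and Oas3 joining Mx1.

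The effect of L. acidophilus was then compared between cultures with and without FK506, as an interaction term with no fold minimum. A value above 0 means that the combination lay above the sum of both single effects on the log2 scale. Of the 41 genes, 4 were called above the sum (Isg15, Ifih1, Oas1a and Oasl1), where 1.35% of all genes tested were, and none below it, where 3% were (2 at an unadjusted p under 0.05). Values were above 0 for 30 genes and below 0 for 11, with a median of 0.78 against -0.0075 over all genes. Without replicate 1 of the combination, Oas1a and Oasl1 were called above (background 0.865%) and none below (background 2.4%). DESeq2 called 18 genes in this term, 17 above (where it called 4.61% of all genes above) and 1, Gbp2, below (5.48%), and limma on log2(FPKM + 1) 4 above and 0 below (3.67% and 3.43% of all genes).

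**Figure D3:**
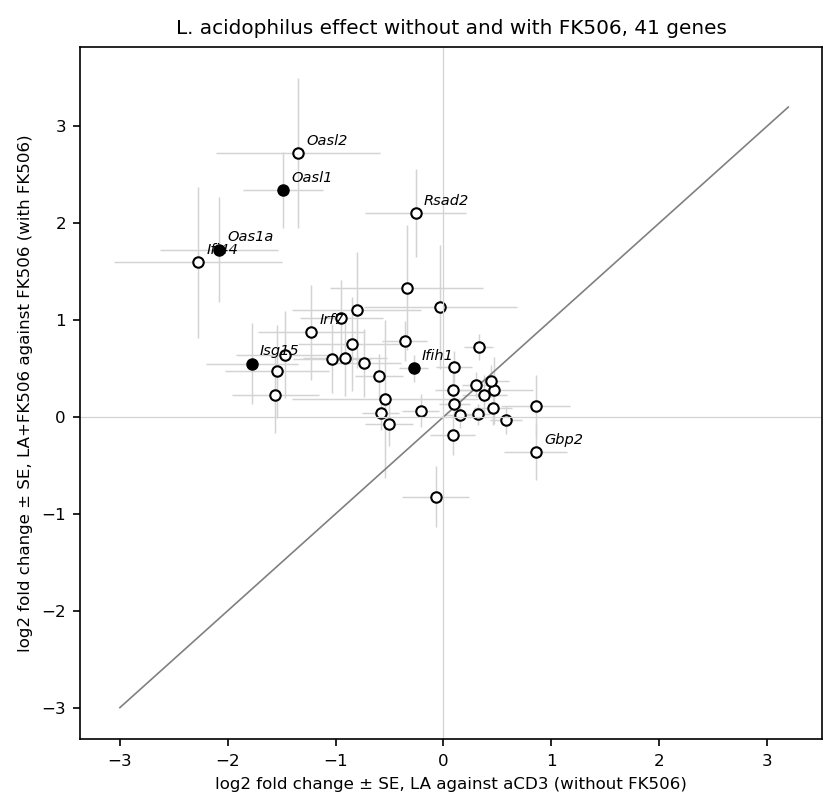
Log2 fold change ± SE of the 41 genes for L. acidophilus without FK506 (horizontal) and for L. acidophilus on top of FK506 (vertical), 3 libraries per group; the line marks equal effects, and filled points were called in the interaction. Oasl1, Oas1a and Isg15 lie left of 0 and above the line, at -1.49, -2.08 and -1.78 without FK506 and 2.34, 1.73 and 0.55 with it, and 30 of the 41 points lie above the line.

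Among the transcription factors, Irf1, an activator that interferon-γ induces, had the highest level. It measured 58.7, 59.9 and 65.9 FPKM with anti-CD3 alone, 86.0, 73.8 and 71.2 with L. acidophilus, 95.0, 118 and 109 with FK506 and 125, 121 and 109 with the combination. All libraries of each treated group lay above all control libraries, and the FK506 and combination groups overlapped. The log2 fold change against anti-CD3 alone was 0.77 ± 0.11 (SE) with FK506 (adjusted p = 0.00102) and 0.79 ± 0.11 with the combination (adjusted p = 0.000183), both short of 2-fold, and 0.32 ± 0.11 with L. acidophilus (adjusted p = 0.219). The GAS core of its promoter is printed above.

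The other transcription factors varied. Irf9, the DNA-binding subunit of the type I interferon complex, was at 18.1, 24.3 and 24.5 FPKM with anti-CD3 alone and at 53.2, 36.0 and 36.0 with the combination (0.69 ± 0.17, adjusted p = 0.00527; 0.46 ± 0.13 without replicate 1 of the combination). Its partner Stat2 went from 39.6, 38.4 and 51.4 FPKM to 35.4, 28.6 and 29.5 in the same comparison (-0.66 ± 0.17, adjusted p = 0.00775), the groups not overlapping. Irf7, which amplifies the type I interferon response, was at 5.34, 16.6 and 15.2 FPKM with anti-CD3 alone, 4.42, 4.93 and 7.32 with L. acidophilus, 10.7, 9.17 and 7.10 with FK506 and 32.0, 9.42 and 10.2 with the combination. Replicate 1 of the combination was over 3 times as high as the other combination libraries. Its call against L. acidophilus (1.53 ± 0.50, adjusted p = 0.0341) was lost without that library (0.68 ± 0.39, adjusted p = 0.219) and also without replicate 1 or 2 of L. acidophilus.

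Isg15 and Usp18 fell with FK506. Isg15 encodes a ubiquitin-like protein that is attached to other proteins during the interferon response. It measured 16.6, 41.5 and 29.0 FPKM with anti-CD3 alone, 9.25, 6.73 and 10.9 with L. acidophilus, 9.05, 5.98 and 6.94 with FK506 and 19.4, 7.39 and 7.08 with the combination. Both single-treatment groups lay wholly below the control, while replicate 1 of the combination lay above the lowest control library. The log2 fold change was -2.10 ± 0.43 with FK506 (adjusted p = 0.00613) and -1.55 ± 0.42 with the combination (adjusted p = 0.0110), which became -2.23 ± 0.37 without replicate 1 of the combination. With L. acidophilus it was -1.78 ± 0.43 and missed the threshold (adjusted p = 0.0965). The combination call was lost without replicate 2 of the control (adjusted p = 0.0522).

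Usp18, the protease that removes ISG15 from proteins and that dampens type I receptor signaling, followed Isg15. It measured 6.29, 18.9 and 17.2 FPKM with anti-CD3 alone, 4.18, 4.30 and 6.83 with L. acidophilus, 4.27, 3.64 and 3.80 with FK506 and 10.4, 3.60 and 2.99 with the combination. Control replicates 2 and 3 stood well above all other libraries, and only the FK506 group lay wholly below the control. The changes were -1.96 ± 0.49 with FK506 (adjusted p = 0.0163) and -1.49 ± 0.48 with the combination (adjusted p = 0.0257; -2.32 ± 0.42 without replicate 1 of the combination). The FK506 call was lost without replicate 2 of the control or of FK506, and the combination call without replicate 2 or 3 of either group, with adjusted p up to 0.0963. Herc6, which attaches ISG15, was at 3.81, 4.73 and 6.47 FPKM with anti-CD3 alone, 3.89, 3.88 and 4.54 with L. acidophilus and 11.2, 7.83 and 8.16 with the combination. It rose against L. acidophilus (1.03 ± 0.21, adjusted p = 0.00301), a change that dropped under 2-fold without replicate 1 of the combination (0.82 ± 0.20) or replicate 1 or 2 of L. acidophilus.

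The IFIT genes, whose proteins bind foreign RNA, lie together at chr19:34550550-34650009 (GRCm38). Ifit2 measured 1.93, 2.35 and 3.51 FPKM with anti-CD3 alone, 2.81, 3.87 and 3.97 with L. acidophilus, 4.58, 5.57 and 4.57 with FK506 and 7.08, 5.5 and 5.69 with the combination. Both groups with FK506 lay wholly above the control. Ifit2 rose with the combination (1.04 ± 0.21, adjusted p = 0.00164) and was just short of 2-fold without replicate 1 of that group (0.90 ± 0.22) or of the control (0.88). Its GAS core is printed above.

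Ifit3 rose with the combination from a level near 0. It measured 0.187, 0.174 and 0.214 FPKM with anti-CD3 alone, 0.253, 0.114 and 0.216 with L. acidophilus, 1.14, 1.15 and 0.506 with FK506 and 4.91, 0.655 and 0.896 with the combination, from 21 to 29 reads per control library and 70 to 706 per combination library. The high value came from replicate 1, and all combination libraries were above all control libraries. The log2 fold change of 3.22 ± 0.71 (adjusted p = 0.00315) became 1.72 ± 0.40 without replicate 1 (adjusted p = 0.00621), and that against L. acidophilus went from 3.25 ± 0.71 to 1.74 ± 0.40. Ifit1 was at 0.619, 0.413 and 0.594 FPKM with L. acidophilus and 4.87, 1.11 and 1.38 with the combination, and its rise of 2.07 ± 0.51 (adjusted p = 0.00800) became 1.05 ± 0.30 without replicate 1 (adjusted p = 0.0225).

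The nucleic acid sensors went different ways. Zbp1, a sensor of Z-form nucleic acid that can start cell death, measured 30.4, 61.5 and 53.1 FPKM with anti-CD3 alone, 52.3, 49.9 and 52.7 with L. acidophilus, 76.4, 103 and 98.2 with FK506 and 102, 73.9 and 74.2 with the combination. Both FK506 groups lay wholly above the control. It rose with FK506 (1.01 ± 0.21, adjusted p = 0.00614), a change that fell under 2-fold without replicate 1 of the control (0.82) or replicate 2 of FK506 (0.91). With the combination the value was 0.83 ± 0.21 (adjusted p = 0.00703), short of 2-fold.

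Ifih1 encodes MDA5, a sensor of long double-stranded RNA. It measured 7.84, 7.10 and 10.7 FPKM with anti-CD3 alone, 6.22, 7.70 and 8.23 with L. acidophilus, 4.96, 4.58 and 4.64 with FK506 and 7.17, 7.04 and 7.24 with the combination. The 3 FK506 libraries were the 3 lowest, and the combination libraries were within the range of the other groups. Against anti-CD3 alone Ifih1 stood at -0.96 ± 0.14 with FK506 (adjusted p = 0.000846), just short of 2-fold, and at -0.27 ± 0.13 with L. acidophilus. The interaction of 0.78 ± 0.19 had an adjusted p of 0.0439, and the call was lost on removal of any 1 of 11 of the 12 libraries. Dhx58, which encodes the related regulator LGP2, was at 5.51, 8.80 and 9.10 FPKM with anti-CD3 alone and 3.13, 3.61 and 5.34 with L. acidophilus, without overlap (-1.03 ± 0.36, adjusted p = 0.218), and was not called in any comparison.

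OAS genes differed widely between treatments. OAS enzymes sense double-stranded RNA and make the messenger that switches on RNase L. Oas3 measured 16.7, 19.6 and 31.5 FPKM with anti-CD3 alone, 4.95, 7.60 and 11.7 with L. acidophilus, 5.17, 4.36 and 5.90 with FK506 and 10.7, 3.83 and 4.53 with the combination. Every treated library lay below every control library. Oas3 fell with FK506 (-2.24 ± 0.42, adjusted p = 0.00353) and with the combination (-2.01 ± 0.41, adjusted p = 0.00205; -2.65 ± 0.36 without replicate 1), and both calls held on removal of any 1 library. With L. acidophilus the value was -1.56 ± 0.41 (adjusted p = 0.117).

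Oas1a measured 4.64, 9.0 and 6.05 FPKM with anti-CD3 alone, 2.05, 1.31 and 1.41 with L. acidophilus, 2.40, 1.05 and 0.828 with FK506 and 9.96, 2.64 and 2.39 with the combination. Both single-treatment groups lay below the control, and replicate 1 of the combination was the highest of all 12 libraries while the other 2 combination libraries lay below the control. It fell with FK506 (-2.31 ± 0.55, adjusted p = 0.0132, lost without replicate 2 of FK506). The rise on adding L. acidophilus to FK506 (1.73 ± 0.55, adjusted p = 0.0449, with overlapping groups) was 0.76 ± 0.41 without replicate 1 of the combination (adjusted p = 0.241), and the call was lost on removal of 7 different libraries. The interaction of 3.81 ± 0.77 (adjusted p = 0.0212) was 2.84 ± 0.55 without that library and still called (adjusted p = 0.0265), though it was lost without replicate 2 or 3 of L. acidophilus or replicate 3 of FK506.

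Oasl1, an OAS-like protein that limits translation of IRF7, had the firmest pattern of the family. It measured 4.34, 2.60 and 2.78 FPKM with anti-CD3 alone, 1.61, 0.822 and 1.25 with L. acidophilus, 0.555, 0.527 and 0.178 with FK506 and 2.41, 2.12 and 2.47 with the combination. The 4 groups did not overlap at any point, in the order anti-CD3 alone, combination, L. acidophilus and FK506, with 22 to 89 reads per FK506 library. It fell with FK506 (-3.05 ± 0.40, adjusted p = 0.000525) and was higher with the combination than with FK506 (2.34 ± 0.39, adjusted p = 0.00209). The interaction was 3.83 ± 0.54 (adjusted p = 0.00597), and 3.77 ± 0.58 without replicate 1 of the combination. All 3 calls held on removal of any 1 library.

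Oasl2 and Oas2 rested on few reads. Oasl2 measured 0.0777, 0.151 and 0.253 FPKM with anti-CD3 alone, 0.110, 0.0389 and 0.0354 with L. acidophilus, 0.105, 0 and 0.0572 with FK506 and 0.422, 0.462 and 0.337 with the combination, where 59 to 96 reads stood against 0 to 24 with FK506. The combination libraries were the highest 3. Its rises against FK506 (2.72 ± 0.77, adjusted p = 0.0289) and L. acidophilus (2.5 ± 0.76, adjusted p = 0.0242) were lost on removal of any 1 of 4 and of any 1 of 3 libraries, and were 3.55 without replicate 1 of FK506 and 3.18 without replicate 1 of L. acidophilus. Oas2 was at 0.215, 0.113 and 0.298 FPKM with anti-CD3 alone, 1.04, 0.480 and 0.426 with FK506 and 2.14, 0.128 and 0.140 with the combination. It was called in no comparison with all libraries, and without replicate 1 of the combination it was lower with the combination than with FK506 (-2.33 ± 0.42, adjusted p = 0.00506).

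**Figure D4:**
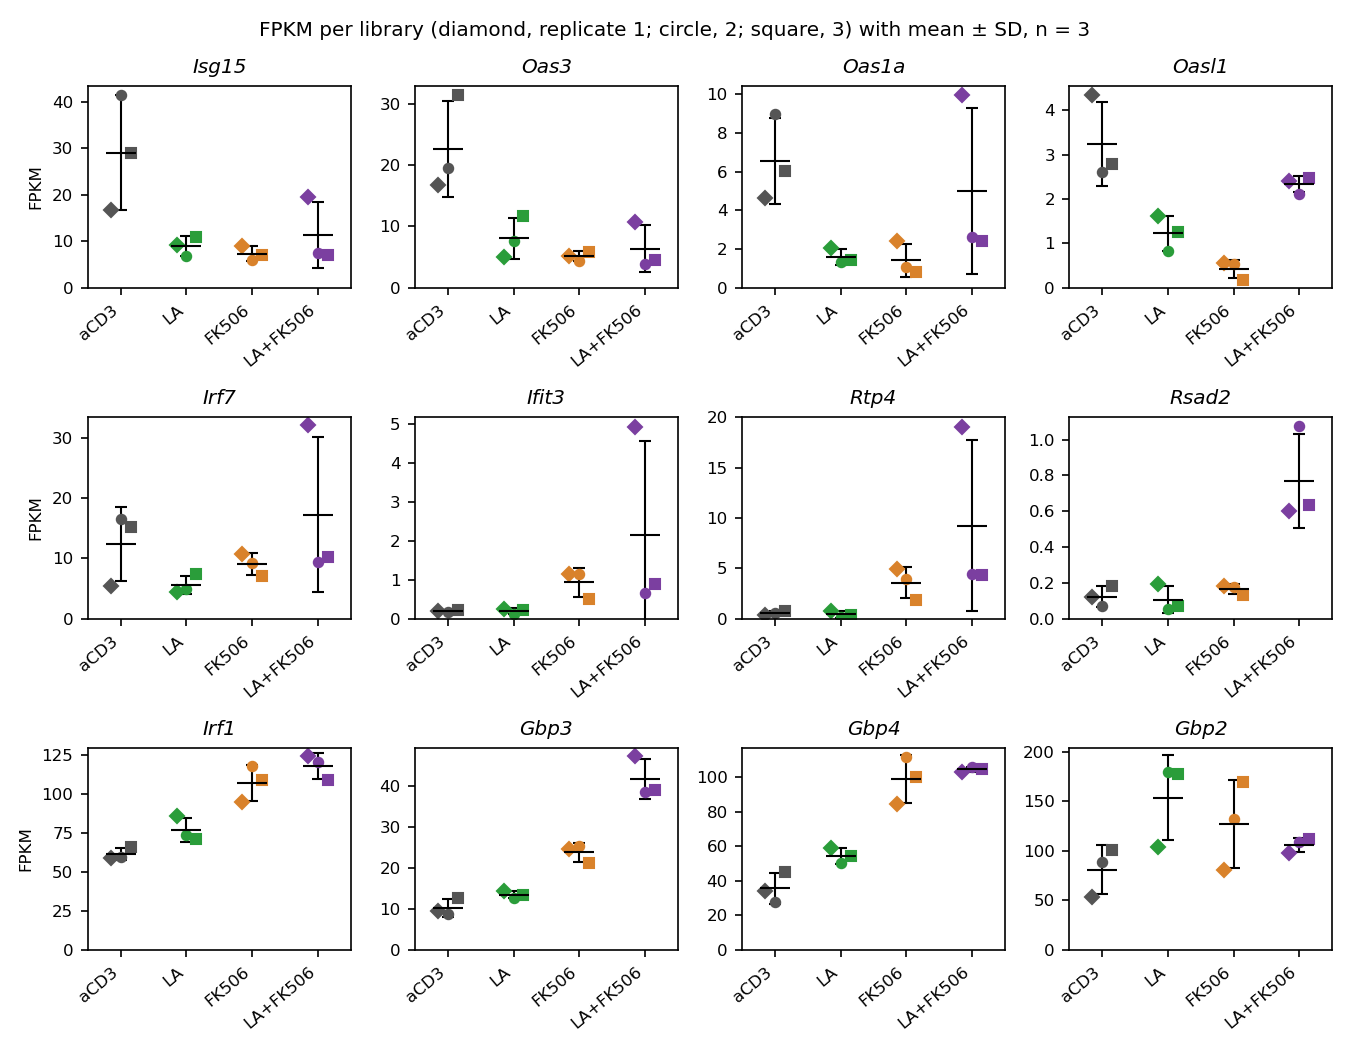
FPKM of 12 genes in each library (points, shaped by replicate number) with the mean and SD of each group (n = 3), each panel on its own linear scale from 0. Replicate 1 of the combination (diamond) lies far above replicates 2 and 3 for Oas1a, Irf7, Ifit3 and Rtp4, at 9.96, 32.0, 4.91 and 19.1 FPKM, and within their range or near it for Oasl1, Gbp4 and Irf1.

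The antiviral effectors also went different ways. Samhd1, which breaks down the nucleotides that viruses need, had the highest level at 111, 125 and 186 FPKM with anti-CD3 alone, 149, 157 and 169 with L. acidophilus, 183, 250.5 and 219 with FK506 and 312, 266 and 266 with the combination. The combination libraries lay above all 9 others. The change against the control was 0.82 ± 0.17 (adjusted p = 0.00249), short of 2-fold. Isg20, a nuclease that degrades viral RNA, was at 1.32, 2.16 and 3.35 FPKM with anti-CD3 alone, 5.18, 2.31 and 2.65 with L. acidophilus, 7.61, 9.72 and 9.98 with FK506 and 14.7, 10.2 and 9.72 with the combination. It rose with FK506 (1.93 ± 0.36, adjusted p = 0.00390) and with the combination (2.2 ± 0.37, adjusted p = 0.000504), both groups lying wholly above the control and both calls holding on removal of any 1 library.

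Rsad2 encodes viperin, an enzyme that makes a chain-terminating nucleotide. It measured 0.118, 0.0692 and 0.183 FPKM with anti-CD3 alone, 0.193, 0.0548 and 0.0691 with L. acidophilus, 0.184, 0.178 and 0.133 with FK506 and 0.604, 1.07 and 0.634 with the combination, and 133 to 211 reads per combination library against 13 to 54 in the others. The combination group alone was raised, and here replicate 1 was its lowest library. The log2 fold change was 2.41 ± 0.46 against anti-CD3 alone (adjusted p = 0.00129), 2.11 ± 0.45 against FK506 (adjusted p = 0.00787) and 2.67 ± 0.47 against L. acidophilus (adjusted p = 0.00110; 3.41 without its replicate 1). All 3 calls held on removal of any 1 library, and the interaction of 2.36 ± 0.65 missed the threshold (adjusted p = 0.0627). Cmpk2, its neighbor on chromosome 12, ranged from 0.378 to 1.63 FPKM and was not called.

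The MX genes belong to a family of antiviral GTPases, and Bst2 encodes tetherin, which holds budding virus at the cell surface. Mx1 was at 1.95, 2.57 and 4.17 FPKM with anti-CD3 alone, 2.86, 2.73 and 3.07 with L. acidophilus, 2.72, 1.67 and 2.84 with FK506 and 2.03, 1.16 and 1.12 with the combination. It fell with the combination against anti-CD3 alone (-1.18 ± 0.31, adjusted p = 0.00940, under 2-fold without replicate 3 of the control) and was the only gene called lower against L. acidophilus (-1.11 ± 0.31, adjusted p = 0.0167, lost without replicate 2 or 3 of the combination). Mx2 fell with FK506, from 1.86, 2.92 and 4.14 to 1.02, 0.707 and 0.981 FPKM (-1.81 ± 0.46, adjusted p = 0.0170), and so did Bst2, from 84.5, 91.6 and 80.9 to 43.9, 28.2 and 29.7 FPKM (-1.46 ± 0.35, adjusted p = 0.0139). Both groups were wholly below the control, and both calls were lost without replicate 2 of FK506. In the combination group Bst2 was at 90.0, 36.1 and 31.3 FPKM, so that replicate 1 stood at the control level and the other libraries near that of FK506.

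Guanylate-binding proteins, GTPases that assemble on pathogen vacuoles and bacteria, had their lowest group means with anti-CD3 alone, where Isg15 and Oas3 had their highest. Single libraries overlapped for some of these genes, Gbp2 and Isg15 among them. Gbp3 measured 9.34, 8.61 and 12.6 FPKM with anti-CD3 alone, 14.4, 12.5 and 13.4 with L. acidophilus, 24.7, 25.4 and 21.2 with FK506 and 47.3, 38.5 and 39.0 with the combination. The combination lay wholly above FK506, and FK506 wholly above L. acidophilus. Gbp3 rose with FK506 (1.11 ± 0.14, adjusted p = 0.000375) and with the combination (1.84 ± 0.14, adjusted p = 6.96e-06). The step from FK506 to the combination was 0.72 ± 0.13 (adjusted p = 0.00380), short of 2-fold, and that from L. acidophilus 1.51 ± 0.14 (adjusted p = 3.91e-05).

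Gbp4 and Gbp7 also rose in both FK506 groups. Gbp4 was at 34.1, 27.5 and 44.9 FPKM with anti-CD3 alone, 59.2, 50.02 and 54.4 with L. acidophilus, 84.6, 112 and 101 with FK506 and 103, 106 and 105 with the combination. Every treated group lay above the control, and the combination did not differ from FK506 beyond its spread (-0.03 ± 0.15). The changes were 1.41 ± 0.15 with FK506 (adjusted p = 0.000198) and 1.38 ± 0.15 with the combination (adjusted p = 3.62e-05). Gbp7 changed by 1.33 ± 0.17 (adjusted p = 0.000463) and 1.70 ± 0.17 (adjusted p = 2.15e-05), from 7.69, 8.52 and 13.2 FPKM with anti-CD3 alone to 35.8, 36.3 and 37.1 with the combination. Gbp5 had 0.80 ± 0.18 and 0.89 ± 0.18, short of 2-fold (adjusted p = 0.00994 and 0.00189). The calls on Gbp3, Gbp4 and Gbp7 against anti-CD3 alone held on removal of any 1 library.

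Gbp2, the most abundant of the family, did not follow the others. It measured 52.9, 88.5 and 101 FPKM with anti-CD3 alone, 104, 179.7 and 177 with L. acidophilus, 80.9, 132 and 169 with FK506 and 97.4, 109 and 111 with the combination. The highest values were in L. acidophilus libraries, all of which lay above the control libraries, and replicate 1 was the lowest of its group in each of the 4 groups. The value was 0.86 ± 0.29 with L. acidophilus (adjusted p = 0.207) and 0.19 ± 0.29 with the combination (adjusted p = 0.633). The interaction of -1.22 ± 0.41 was the lowest of the 41 and missed the threshold (adjusted p = 0.123). Gbp2, Gbp3, Gbp5 and Gbp7 lie in a cluster on chromosome 3, and Gbp4 is on chromosome 5.

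The immunity-related GTPases, a family that takes part in defense against pathogens in vacuoles, rose where they were called. Igtp had the highest level at 129.5, 160.0 and 166 FPKM with anti-CD3 alone, 174, 176 and 186 with L. acidophilus, 178, 202 and 202 with FK506 and 253, 189.6 and 186 with the combination. All treated libraries lay above all control libraries, yet the shifts were small, at most 0.26 ± 0.14 with the combination (adjusted p = 0.152; 0.08 ± 0.12 without its replicate 1). Irgm1 was at 32.9, 41.7 and 50.1 FPKM with anti-CD3 alone, 54.2, 51.1 and 57.1 with L. acidophilus, 70.7, 76.4 and 75.2 with FK506 and 110.4, 96.6 and 92.5 with the combination, an order without overlap between groups. It rose with the combination (1.05 ± 0.13, adjusted p = 7.77e-05) and fell just short of 2-fold without replicate 1 of either group. Iigp1 was at 9.92, 21.6 and 27.7 FPKM with anti-CD3 alone, 42.8, 55.0 and 74.7 with FK506 and 57.2, 65.7 and 73.4 with the combination, and rose by 1.36 ± 0.32 (adjusted p = 0.0122) and 1.48 ± 0.32 (adjusted p = 0.00303).

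Parp9 and Dtx3l encode partner proteins, an ADP-ribosyltransferase and a ubiquitin ligase, and are adjacent genes on chromosome 16. Parp9 measured 23.8, 26.1 and 36.4 FPKM with anti-CD3 alone, 22.8, 25.0 and 31.7 with L. acidophilus, 29.1, 27.8 and 28.4 with FK506 and 37.9, 28.1 and 27.9 with the combination. The 4 groups overlapped, and the log2 fold changes against the control were between -0.21 ± 0.17 and -0.09 ± 0.17. Dtx3l had 0.42 ± 0.14 with the combination (adjusted p = 0.0331), short of 2-fold, and 0.29 ± 0.14 without its replicate 1 (adjusted p = 0.129).

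Of the remaining genes, Ifi27l2a, which encodes a small membrane protein, was the most abundant. It measured 213, 900.1 and 457 FPKM with anti-CD3 alone, 327, 284 and 343 with L. acidophilus, 309.9, 153 and 128 with FK506 and 886, 216 and 223 with the combination. Libraries of 1 group differed by up to over 4 times, and the groups overlapped. None of its comparisons was called with all libraries; without replicate 1 of the combination the combination was lower than the control (-1.48 ± 0.52, adjusted p = 0.0403). Ifi44 was at 1.57, 3.72 and 7.92 FPKM with anti-CD3 alone and 0.958, 0.228 and 0.315 with FK506, and fell (-3.20 ± 0.82, adjusted p = 0.0177), a call that was lost without replicate 3 of the control or replicate 2 or 3 of FK506. Over single removals its value ran from -4.06 (without replicate 1 of FK506) to -2.53 (without replicate 3 of the control).

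Rtp4, which encodes a chaperone for G-protein-coupled receptors, had the largest rise of the 41 with the combination. It measured 0.321, 0.578 and 0.714 FPKM with anti-CD3 alone, 0.801, 0.142 and 0.372 with L. acidophilus, 4.91, 3.92 and 1.86 with FK506 and 19.1, 4.38 and 4.28 with the combination. Both groups with FK506 lay wholly above both groups without it. Rtp4 rose by 3.94 ± 0.73 with the combination (adjusted p = 0.00107; 2.79 ± 0.56 without its replicate 1, adjusted p = 0.00259) and by 2.61 ± 0.70 with FK506 (adjusted p = 0.0227). The FK506 call was lost on removal of replicate 1 or 2 of either group, with adjusted p up to 0.0699. Against L. acidophilus the value was 4.28 ± 0.74 (adjusted p = 0.00108), 3.13 ± 0.57 without replicate 1 of the combination and 5.05 without replicate 1 of L. acidophilus. Rtp4 is placed at chr16:23520219-23614222 (GRCm38).

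Xaf1, which promotes cell death, was at 3.28, 3.57 and 6.74 FPKM with L. acidophilus and 20.1, 8.99 and 8.72 with the combination. It was higher with the combination (1.23 ± 0.39, adjusted p = 0.0281), which was lost without replicate 1 of the combination (0.78 ± 0.36, adjusted p = 0.133) or replicate 1 or 2 of L. acidophilus. Trim30a had -0.75 ± 0.22 with FK506 (adjusted p = 0.0344), short of 2-fold, and -0.32 ± 0.22 with the combination. Ifi35 ranged from 23.9 to 48.5 FPKM and was not called in any comparison.

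**Figure D5:**
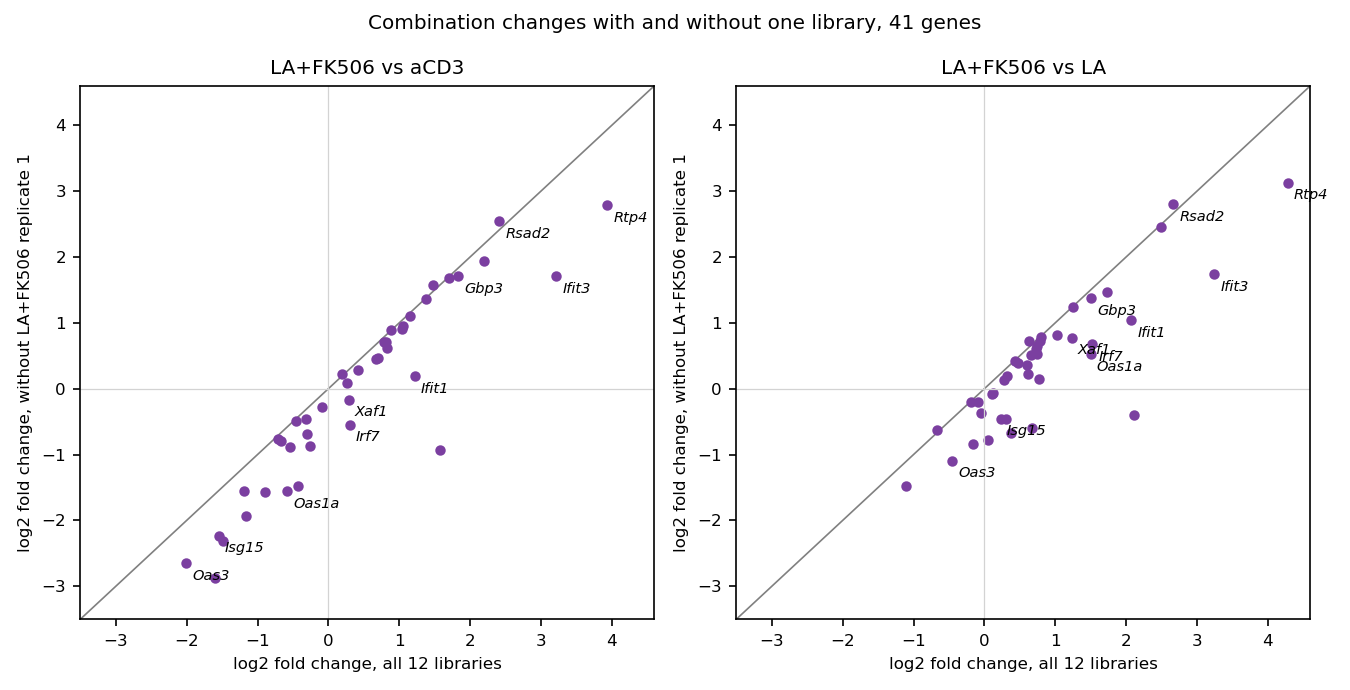
Log2 fold change of the 41 genes for the combination against anti-CD3 alone (left) and against L. acidophilus (right), with all 12 libraries (horizontal) and without replicate 1 of the combination (vertical); the line marks equal values. Most points lie below the line, Ifit3 going from 3.22 to 1.72 and Rtp4 from 3.94 to 2.79 against anti-CD3 alone, while Rsad2 lies slightly above it, at 2.41 and 2.55.

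The genes that make and relay interferon were read in the same libraries. Of 11 interferon genes, 3 passed the requirement on counts. Ifng, which encodes interferon-γ, measured 3.83, 2.5 and 3.45 FPKM with anti-CD3 alone, 26.0, 5.91 and 6.42 with L. acidophilus, 4.13, 4.02 and 7.34 with FK506 and 3.34, 11.1 and 13.0 with the combination. Replicate 1 was the highest of the L. acidophilus group and the lowest of the combination group, and no comparison of Ifng was called with all libraries (lowest adjusted p = 0.103, combination against anti-CD3 alone). Without replicate 1 of the combination, Ifng was called higher than with anti-CD3 alone (1.66 ± 0.56, adjusted p = 0.0350). Ifnb1, the interferon-β gene, had 0 to 9 reads per library and Ifna4 had 2 to 4 reads in the control libraries and 0 in all others; Ifna4 was nominally called lower with the combination, on those few reads, a call lost without replicate 1 of the combination (adjusted p = 0.0865). The other 8 had at most 5 reads in any library.

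Receptors were higher with the combination where they were called. Of 6 receptor genes, Ifngr1 (2.60 ± 0.42, adjusted p = 0.000402) and Ifnar2 (1.03 ± 0.09, adjusted p = 1.03e-05) were called higher than with anti-CD3 alone, in a comparison where 13.8% of all genes tested were called higher and 10.8% lower. Ifngr1, the ligand-binding chain for interferon-γ, was at 16.9, 13.7 and 16.7 FPKM with anti-CD3 alone, 61.3, 37.6 and 19.9 with FK506 and 165, 83.0 and 79.4 with the combination, replicate 1 again being the highest of its group, and the change was 2.14 ± 0.38 without it. Ifnar2 stood at 1.00 ± 0.10 without it, at the 2-fold minimum. Of 5 kinases and STATs, Jak1 was called higher (1.09 ± 0.13, adjusted p = 5.02e-05, and 0.99 ± 0.13, just short of 2-fold, without replicate 1 of the combination) and Jak2 lower (-2.11 ± 0.21, adjusted p = 2.06e-05). Jak2 was at 269, 216 and 309 FPKM with anti-CD3 alone, 103, 94.9 and 134 with FK506 and 69.6, 72.7 and 73.0 with the combination. With FK506 alone, 1 of the 5 was called lower than with anti-CD3 alone, where 4.12% of all genes tested were.

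Of 7 negative regulators, Socs1 (-1.45 ± 0.30, adjusted p = 0.00195) and Socs3 (-1.86 ± 0.32, adjusted p = 0.000694), which encode inhibitors of JAK signaling, were called lower with the combination. Among 7 other IRF genes and their binding proteins, 1 was called lower, Irf4 (-1.33 ± 0.21, adjusted p = 0.000366), a factor of activated lymphocytes. In this comparison 10.8% of all genes tested were called lower. With FK506 alone, 1 negative regulator was called lower, and among the other IRF genes 1 was called higher and 1 lower (6.44% and 4.12% of all genes). Of 12 genes of nucleic acid sensing upstream of interferon, 4 were called higher with the combination (of all genes, the same 13.8%). The 4, named after their values were seen, were the receptors Tlr3 (0 reads in the control libraries and 10 to 41 with the combination, lost without its replicate 1, adjusted p = 0.0577), Tlr7 (1.36 ± 0.31, adjusted p = 0.00423) and Tlr9 (4.48 ± 0.46, adjusted p = 2.46e-05) and the kinase Ikbke (1.29 ± 0.21, adjusted p = 0.000468). Tlr7 was higher still with FK506 alone. It was at 1.64, 0.861 and 0.868 FPKM with anti-CD3 alone, 10.7, 7.80 and 6.99 with FK506 and 3.61, 2.93 and 2.73 with the combination. Of 12 further interferon-γ targets, 4 were called higher with the combination (Ciita, Nlrc5, Cxcl9 and Cxcl10) and 2 lower (Ido1, and Socs1, which is also among the negative regulators), with a median of -0.11. Of all genes tested, 13.8% were called higher and 10.8% lower. Ciita, the regulator of MHC class II genes, rose by 3.26 ± 0.46 on the log2 scale (adjusted p = 0.000163) and the chemokine gene Cxcl10 by 3.54 ± 0.60 (adjusted p = 0.000555), while B2m had 0.49 ± 0.15 (adjusted p = 0.0218) at the highest level of the list. Tlr7, Tlr9 and Ciita are also expressed in B cells and dendritic cells, whose markers rose in the same groups, and the part of those cells was not tested.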

How the data were processed

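CD4+ T-cell RNA of 12 libraries in 4 groups was measured by RNA-seq; the labels and the study's methods name different Illumina instruments. Per the submitters' processing notes, the authors used bcl2fastq 2.20.0, Trimmomatic, HISAT2 2.1.0 and StringTie 2.1.3b with mm10 (GRCm38). The authors deposited counts, FPKM and TPM values per gene. The counts were used for tests and the FPKM values, which the authors normalized for length and depth, for levels; the deposited TPM values were not used. Strand handling is not given in the sources used here, so reads of overlapping genes could not be told apart.

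Counts of 23585 genes above 0 in at least 3 libraries, from libraries of 45416397 to 64658165 counts, were fitted in R 4.3.3 with edgeR 4.0.16 (TMM factors, quasi-likelihood test, all 12 libraries together), with Benjamini-Hochberg adjustment over all genes, a threshold of 0.05 and a 2-fold minimum, except for the interaction. Each SE is the log2 fold change over √F of its test. The fit was tested on simulated data. Alternatives were DESeq2 1.42.0, limma 3.58.1 on log2(FPKM + 1) or log2(FPKM + 0.1), other scalings and filters, fits on the compared libraries alone, the replicate number as a block, no fold minimum, and each library left out in turn; replicates 2 and 3 alone was chosen after seeing the data.

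The members, gene lists and tests were chosen with earlier results of these data known. Every member was named. FPKM values of each library were given for the most abundant member of each role, for the 3 largest called rises and falls in the combination against anti-CD3 alone, the combination against FK506 and L. acidophilus against anti-CD3, and for the members called in the interaction. At most 4 genes of each other list were to be given by values, those with the highest mean FPKM and the interferon genes above 0; other genes of these lists were chosen after their values were seen. 1 gene of these lists is not reported here.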

Additional observations from a re-analysis of the deposited data

Results flagged for a closer look

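The effect of L. acidophilus differed between cultures with and without FK506, by the interaction term of edgeR's quasi-likelihood test, for 4 of the 41 genes, all above the sum of both single effects, where 1.35% of all genes tested were called above it and 3% below. Oasl1 had an interaction of 3.83 ± 0.54 (SE, log2; adjusted p = 0.00597), which remained called on removal of any 1 library. Oas1a had 3.81 ± 0.77 (adjusted p = 0.0212), lost without replicate 2 or 3 of L. acidophilus or replicate 3 of FK506. Isg15 had 2.33 ± 0.60 (adjusted p = 0.0494) and Ifih1 0.78 ± 0.19 (adjusted p = 0.0439), and each of these calls was lost on removal of any 1 of 11 of the 12 libraries. Without replicate 1 of the combination, which stood apart, the terms were 3.77 for Oasl1 (adjusted p = 0.0144), 2.84 for Oas1a (adjusted p = 0.0265), 1.65 for Isg15 (adjusted p = 0.0759) and 0.75 for Ifih1 (adjusted p = 0.0764). For Oasl1 the log2 fold change with L. acidophilus was -1.49 without FK506 (all 3 libraries below all 3 of the control) and 2.34 with it (all 3 above). The cause was not tested.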

How the results depend on the processing

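Of 49 called single-gene results, 24 kept their call under every alternative run and none reversed; 22 alternatives were run, except that a fit on the compared libraries alone was not made for the 4 interaction results. Calls lost numbered 15 with limma on log2(FPKM + 1), whose pseudocount shrinks changes of low genes by construction, 10 without replicate 2 of FK506, 9 without replicate 1 of the combination and 0 with DESeq2. Counts of members called moved as follows, with the share of all genes called in those fits in parentheses. For L. acidophilus against anti-CD3, edgeR called 0 and DESeq2 6 (1.86%), and leaving out 1 library gave 0 to 1 (0.00428% to 0.723%), the 1 being Isg15, lower, without replicate 1 of the combination. For FK506 against anti-CD3, 15 became 23 with no fold minimum (19%) and 8 to 18 with 1 library left out (7.12% to 11%). For the combination against anti-CD3, 14 became 23 with no fold minimum (43.3%) and 13 to 17 with 1 library left out (20.4% to 25%). For the combination against FK506, 4 became 1 with limma on log2(FPKM + 1) (2.74%), 8 with no fold minimum (19.1%) and 2 to 5 with 1 library left out (4.18% to 8.19%). For the combination against L. acidophilus, 12 became 7 with limma on log2(FPKM + 1) (6.86%), 19 with no fold minimum (33.6%) and 8 to 13 with 1 library left out (13.8% to 17.4%). The interaction count of 4 became 18 with DESeq2 (10.1%), 7 with edgeR's own low-count filter (7.1%) and 1 to 7 with 1 library left out (1.42% to 6.25%). The cause of these shifts was not tested, apart from the missing fold minimum.

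With the replicate number as a replicate block, the 6 counts were 0, 16, 15, 4, 12 and 5 in the same order, where 0.293%, 10.7%, 23.9%, 8.14%, 16.7% and 6.69% of all genes were called. The block lost the calls of Irf7 against L. acidophilus (1.46, adjusted p = 0.0698) and Isg15 in the interaction (2.33, adjusted p = 0.0577). Same-numbered libraries deviated together in part: their deviations from the group means, over 16954 genes, had a mean correlation of 0.160 (range -0.0555 to 0.407) against -0.0785 for other pairs, and all 6 pairs of replicate 1 and all 3 pairs of L. acidophilus and control were over 0.1. The numbers were not taken as pairs because this was required of all 18 same-numbered pairs and held for 12. Leaving out the TMM factors moved the median of all genes against anti-CD3 alone from 0.02 to 0.23 with the combination, where members called then numbered 14 higher and 3 lower. Replicates 2 and 3 alone, chosen after seeing the data, gave 0, 21, 19, 6, 10 and 6 calls in the same order, where 0.0136%, 9.96%, 25.8%, 8.61%, 18.2% and 2.15% of all genes were called. Precision did not follow read numbers alone. For L. acidophilus against anti-CD3 alone, the SE was 0.76 for Oasl2, 0.71 for Ifit3, 0.86 for Oas2 and 0.47 for Rsad2, all with few reads. It was 0.78 for Ifi44 and 0.60 for Ifi27l2a, which had more reads.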
